A study of Mus musculus with 16 samples.

Results

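The baseline transcriptome of wild-type DN3 thymocytes was described from 3 RNA-seq libraries, out of 16 samples in the series. All 22114 protein-coding genes of the deposited table were examined in these 3 libraries, which were chosen by their label as wild-type replicates 1 to 3. The mice were on a C57BL/6 background, were labelled wildtype with no treatment named, and were 6 weeks old. DN3 cells (CD4- CD8- CD44- CD25+) were sorted from the thymus. The study's methods describe pools of several mice for expression profiling by array. The study also calls its RNA-seq samples pooled, in its account of other sorted DN3 cells of the series. Whether each wild-type library is a pool is not stated separately. The study used wild-type DN3 cells as controls for thymocytes that overexpress Lmo2 or lack p21. Apart from Cdkn1a counts set beside those of p21-deficient libraries, no group was compared with another here.

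DN3 thymocytes are the third stage of the immature T cells that bear neither CD4 nor CD8. At this stage the cells have committed to the T-cell lineage under Notch signals from the thymic stroma, carry the interleukin-2 receptor alpha chain (CD25) on their surface, have lost CD44, and rearrange the gene for the T-cell receptor beta chain. A cell with a productive rearrangement pairs that chain with the invariant pre-T alpha chain, signals through this pre-TCR, divides and moves on, a step called beta-selection.

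Levels are given as CPM, the counts of a gene scaled to libraries of equal size, after normalization by the TMM method, for the libraries in the order of replicates 1, 2 and 3. CPM also depends on gene length, so ratios and shares between genes use TPM (the level per merged exon length, scaled to the same sum in each library), with the mean ± SD over n = 3 libraries. Merged exons include the noncoding bases of every transcript, and a ratio or share is also given by coding length, chosen after the data were seen, where that turned the order or moved the value by more than 1.5 times. The libraries held 16125238, 15597042 and 16257863 counts. The level of 3 counts, taken as the limit of detection, lay between 0.185 and 0.192 CPM per library, which covers counting error only. Cdkn1a, which encodes p21, had 596, 590 and 810 counts in the wild-type libraries, against 244 and 280 counts in replicates 1 and 2 of the p21-deficient group without the transgene. Replicate 3 of that group was not analysed here.

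Wild-type replicate 3 stood apart from the others, so levels are given for each library or with their SD, and the count of variable genes and the estimate of spread also without it. The SD of the log2 ratio of CPM over 9515 genes with a mean of at least 5 CPM was 0.13 between replicates 1 and 2, 0.34 between replicates 1 and 3, and 0.34 between replicates 2 and 3. The biological coefficient of variation, the spread beyond counting error as estimated by edgeR across genes, was 9.27% over the 3 libraries and 3.62% for replicates 1 and 2 alone. Averaged over genes, no pair of libraries agreed within sampling noise. The chi-square statistic per gene averaged 2.89, 21.3 and 20.2 for these pairs, where counting error alone gives 1. Its median was 0.81, 4.3 and 3.6, where counting error alone gives a value below 1, so the typical gene differed far less between replicates 1 and 2. Replicate 3 held almost no counts of the 4 listed Y-linked genes, less RNA of immediate-early genes, and relatively more of short genes. Each is described at the end with its values.

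The marker genes of the DN3 stage were high in every library. All 6 markers were at 1 CPM or more in every library, beside 48.2% of all genes, and their median was 708 ± 39.7 CPM (SD, n = 3), while the median over all genes was 0.81 CPM. Il2ra, which encodes CD25 (GRCm38, chr2:11642807-11693193), stood at 1614, 1637 and 1712 CPM. Its level was almost the same in every library. Rag1, a subunit of the recombinase that cuts antigen receptor genes (chr2:101638282-101649501), reached 1289, 1195 and 1303 CPM. Its partner Rag2 (chr2:101624718-101632529) reached 70.8, 62.7 and 86.03 CPM. Per length, Rag1 exceeded Rag2 by 9.05 ± 1.06 times. Both genes, like Notch1, overlap another annotated gene, and reads in shared bases cannot be assigned with certainty.

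Ptcra, which encodes the pre-T alpha chain (chr17:46755663-46763712), was measured at 136, 139 and 189 CPM, with replicate 3 highest. Notch1, the receptor that drives T-lineage commitment (chr2:26457903-26516663), was measured at 1573, 1649 and 1344 CPM, with replicate 3 lowest. Dtx1, a direct target of Notch signals that encodes a ubiquitin ligase (chr5:120680202-120711927), was measured at 96.8, 122 and 125 CPM, with replicate 1 lowest. In order of length-scaled level, the markers ran from Il2ra (1091 ± 2.29 TPM) through Rag1 (719 ± 32.8 TPM), Ptcra (451 ± 71.6 TPM) and Notch1 (404 ± 53.4 TPM) to Dtx1 (81.7 ± 9.34 TPM) and Rag2 (80.3 ± 10.7 TPM). The ranges of Ptcra and Notch1 overlapped between libraries, as did those of Dtx1 and Rag2, so neither pair can be ordered.

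**Figure D1:**
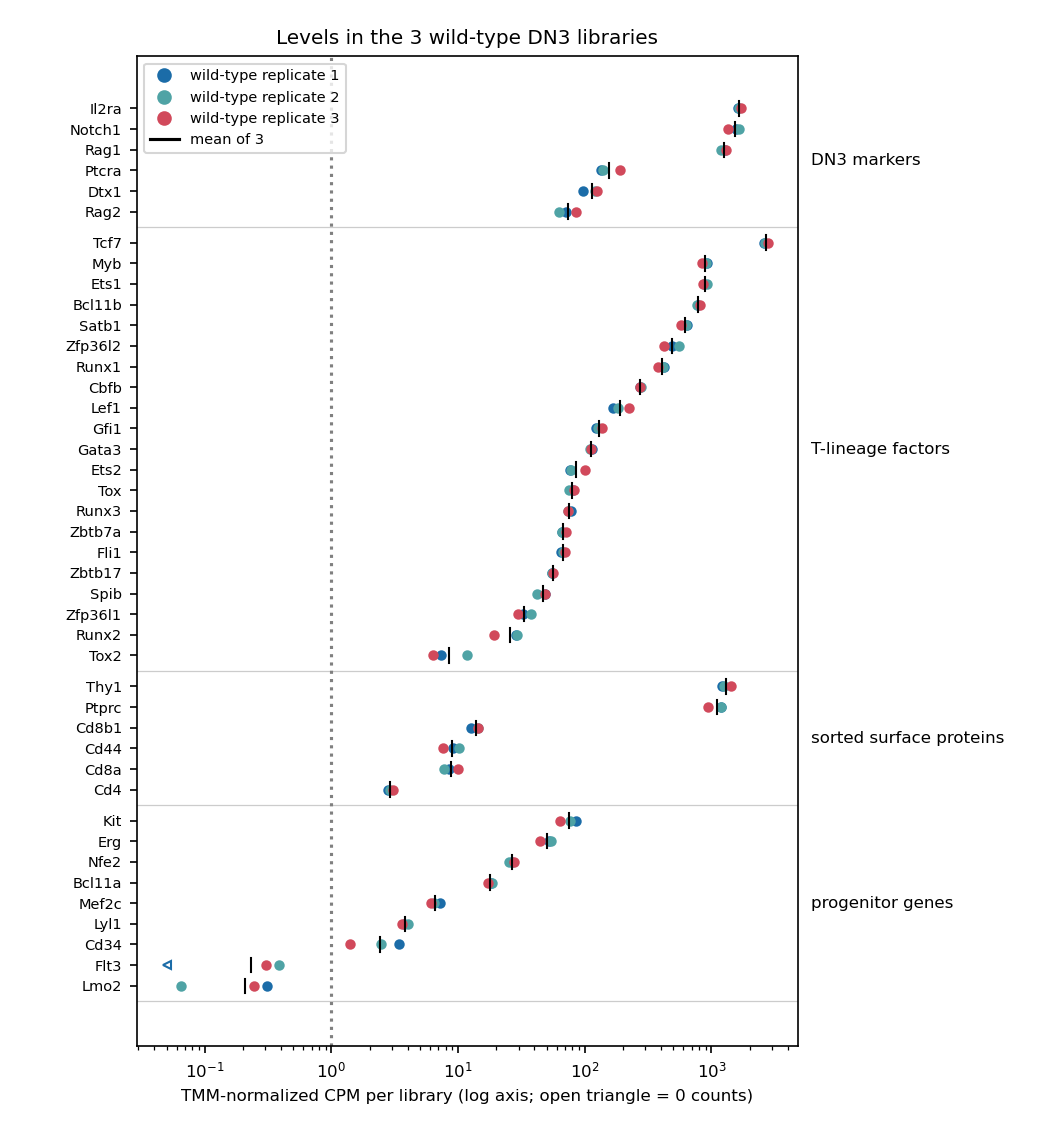
Each point is the TMM-normalized CPM of 1 wild-type library on a log axis, and each black line is the mean of the 3 libraries, with open triangles for 0 counts and a dotted line at 1 CPM. The DN3 markers lie between 62.7 and 1712 CPM, while the progenitor genes Flt3 and Lmo2 do not exceed 0.387 CPM in any library.

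The proximal promoters of Ptcra and Rag1 are shown because these genes define the stage and because E proteins and Notch, through its partner RBPJ, are known regulators of T-cell development. The 150 bases before each start were taken from RefSeq (GRCm38.p6), at chr17:46763713-46763862 and chr2:101649533-101649682, both on the minus strand and written 5′ to 3′. Capitals mark the letters CAGCTG and CACCTG (forms of the E-box bound by E proteins) and TGGGAA (the core of the RBPJ site), searched on both strands.
Ptcra: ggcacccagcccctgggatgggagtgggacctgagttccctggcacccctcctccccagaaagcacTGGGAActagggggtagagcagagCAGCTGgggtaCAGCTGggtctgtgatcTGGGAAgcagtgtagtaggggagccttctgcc
Rag1: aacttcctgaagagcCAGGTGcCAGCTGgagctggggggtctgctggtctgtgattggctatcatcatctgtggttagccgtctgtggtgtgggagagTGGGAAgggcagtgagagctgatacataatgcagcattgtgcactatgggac
The Ptcra window held CAGCTG at 60 and 49 bases before the start and TGGGAA at 84 and 32 bases before it. The Rag1 window held CACCTG on the opposite strand at 135 bases before the start, CAGCTG at 128 bases and TGGGAA at 52 bases. None of these matches overlapped another. Of 32851 RefSeq windows of 250 bases before a start, 13% held CAGCTG, 17.2% held CACCTG and 21.6% held TGGGAA, so the matches are common and are given as a description only. Among the 6 markers, CAGCTG and TGGGAA were each found in the windows of Ptcra and Rag1 and of no other. The windows shown are therefore not typical of the markers.

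The sort was also visible in the genes for the proteins used to gate the cells. Thy1, a pan-T-cell surface protein, stood at 1206, 1253 and 1421 CPM. Cd44, which DN3 cells have lost from the surface, stood at 9.04, 10.1 and 7.604 CPM. Cd4 stood at 2.79, 2.899 and 3.07 CPM, Cd8a at 8.54, 7.73 and 9.93 CPM and Cd8b1 at 12.6, 14.3 and 14.5 CPM. Per length, Il2ra exceeded Cd44 by 224 ± 38.95 times and Cd4 by 401 ± 7.49 times, and by coding length the ratios were 506 ± 88.1 and 892 ± 16.7. In bulk RNA, a low level in all cells and a high level in a few cells cannot be told apart, which holds for every low value that follows.

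The table fell into broad bands of level. No count was seen in any library for 7323 genes (33.1%), and 9455 genes (42.8%) had 3 counts or fewer in each library. At least 1 CPM in all 3 libraries was reached by 10661 genes (48.2%). Between 100 and 1000 CPM lay 2534 genes, which took 59.1% of all counts, and 71 genes at 1000 CPM or more took 13.4%. The 10 genes with the most counts took 4.57% ± 0.0822 (SD, n = 3), and the 1000 genes with the most counts took 49.97% of them.

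By counts, the leading genes were those of protein synthesis, of mitochondria and of the T lineage. The mitochondrial gene mt-Co1, a core subunit of cytochrome oxidase, led with 9346, 9611 and 9526 CPM. Eef1a1 and Eef2, the elongation factors of translation, followed at 8876 ± 348 CPM and 4618 ± 266 CPM. Tcf7, the transcription factor TCF-1 that acts downstream of Notch, ranked 7th with 2612, 2654 and 2791 CPM. Dntt, the terminal transferase that adds bases at recombination joints, ranked 10th with 2669, 2639 and 2587 CPM. The chaperone genes Hsp90ab1 (4287 ± 107 CPM) and Hspa8 (1998 ± 157 CPM) and the nucleolar genes Ncl (2389 ± 168 CPM) and Npm1 (1868 ± 54.4 CPM) were also among the first 20.

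Per length, ribosomal protein genes took more places. Among the 20 highest genes by TPM were Rplp1 (9097 ± 887 TPM), Rplp0 (5792 ± 536 TPM), Rps3a1 (5504 ± 233 TPM) and Rps15 (5150.2 ± 572 TPM). Dntt remained among them at 4327 ± 208 TPM (the 58th by coding length), and Tcf7 (3852 ± 6.68 TPM) ranked 23rd, close to B2m (4072 ± 133 TPM), the light chain of MHC class I. Ly6d, a surface protein of lymphoid precursors, was the 50th at 1879.7 ± 191 TPM. The 77 genes of the cytosolic ribosome took 6.48% ± 0.674 of counts (6.04%, 6.15% and 7.26%), and 6.096% without replicate 3. Of these genes, 76 of the 76 with a mean of at least 5 CPM were highest in replicate 3. The share was 47% over all 9515 genes at that level, not matched for gene length. Of 9 paralogs of these genes, 5 reached 1 CPM in every library (55.6%, near the 48.2% over all genes).

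All 21 T-lineage transcription factors and partners listed reached 1 CPM in every library, beside 48.2% of all genes, with a median of 112 CPM. Tcf7 far exceeded its relative Lef1, with a ratio of 47.9 ± 5.31 per length and 20.1 ± 2.23 by coding length. Bcl11b, the zinc finger factor that marks commitment, stood at 788, 765 and 811 CPM. Its relative Bcl11a, which is used in progenitors and B cells, stood at 18.1, 18.4 and 17.2 CPM, and per length Bcl11b exceeded it by 71.6 ± 4.44 times, or 43.3 ± 2.69 times by coding length. Gata3, required from the earliest T-cell stages, stood at 114, 111 and 112 CPM, with little spread. Gata1 and Gata2, relatives used in erythroid and stem cells, stood at 4.18 ± 0.719 CPM and 0.0832 ± 0.0352 CPM.

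Ets1 (393 ± 24.7 TPM), Myb (376 ± 29.4 TPM) and Bcl11b (366 ± 8.43 TPM) had overlapping ranges per merged exon length, and their means by coding length were 798 TPM, 469 TPM and 354 TPM. Of the Runx factors, Runx1 took 65.4% ± 0.42 of the family's TPM (SD, n = 3), Runx3 28.99% ± 1.13 and Runx2 5.61% ± 0.973, and by coding length Runx3 took 16.4% ± 0.683. Their shared partner Cbfb stood at 275 ± 4.16 CPM. Spib, a factor of early T cells and of dendritic cells, stood at 48.97, 42.00 and 48.6 CPM. Gfi1, a repressor, stood at 123, 128 and 136 CPM, and Tox, a factor of later T-cell maturation, at 81.2, 75.1 and 81.9 CPM. Zfp36l2, an RNA-binding protein that limits division of DN cells, was less even, at 489.9, 556 and 419 CPM.

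E proteins set the threshold of beta-selection and are blocked by Id proteins. Tcf3, which encodes E2A, took 66.1% ± 2.199 of the TPM of the 3 E protein genes and stood at 320.4, 341 and 359 CPM. Tcf12, which encodes HEB, took 31.6% ± 2.06 and stood at 636, 645 and 589 CPM. Tcf4, which encodes E2-2, took 2.35% ± 0.154. By coding length the order of the first pair turned, with 34.3% ± 2.23 for Tcf3, 57.7% ± 2.01 for Tcf12 and 8.06% ± 0.307 for Tcf4. Id3 stood at 25.4, 29.2 and 41.6 CPM, Id2 at 13.2, 16.8 and 10.3 CPM and Id1 at 0.619, 0.58 and 0.368 CPM. Id4 had no count in any library. Tcf3 exceeded Id3 by 4.86 ± 0.925 times per length, or 1.76 ± 0.335 times by coding length. In the Ikaros family, Ikzf1 took 79.1% ± 1.49 of TPM and Ikzf2 10.04% ± 1.44 (18.1% ± 2.34 by coding length), while Ikzf3, Ikzf4 and Ikzf5 took 2.92% ± 0.261, 2.396% ± 0.185 and 5.55% ± 0.307.

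The Notch pathway was represented by receptors and nuclear partners, with little of the ligands. Notch1 took 57.5% ± 0.739 of receptor TPM, Notch3 38.5% ± 0.558 and Notch2 3.899% ± 0.19, so that Notch1 exceeded Notch3 by 1.49 ± 0.0404 times (2.403 ± 0.065 by coding length) in a ratio that varied little between libraries. Notch3 itself, a Notch1 target, stood at 589, 619 and 528 CPM. Notch4 stayed below 1 CPM in every library, at 0.991, 0.838 and 0.858 CPM. Of the 5 ligands, Jag2 reached 10.4, 10.2 and 10.4 CPM and the others did not exceed 0.248 CPM in any library, with no count for Dll1.

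All 20 genes for processing and nuclear action of Notch reached 1 CPM, beside 48.2% of all genes. Adam10, the protease of the ligand-induced cut, stood at 206, 204 and 189 CPM. The gamma-secretase genes Ncstn, Psenen and Aph1a stood at 90.1 ± 3.59 CPM, 22.3 ± 3.15 CPM and 25.6 ± 1.05 CPM, while Psen2 stood at 12.8 ± 0.981 CPM. Among the Fringe glycosyltransferases, which tune the choice of ligand, Mfng (105 ± 5.13 TPM) lay above Lfng (52.6 ± 7.36 TPM) and Rfng (46.4 ± 3.65 TPM), whose ranges overlapped. Rbpj, the DNA-binding partner, stood at 71.6, 62.2 and 62.6 CPM. Fbxw7, which marks the Notch intracellular domain and Myc for degradation, stood at 53.7, 52.1 and 55.1 CPM.

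Notch targets differed widely in level. Of 12 targets, 11 reached 1 CPM in every library, beside 48.2% of all genes. Hes1, a repressor, stood at 84.4, 102 and 75.6 CPM, and Myc at 311, 298 and 432 CPM. Hes5, Heyl and Nrarp stood far lower, at 1.42, 2.19 and 2.02 CPM, 3.78, 3.54 and 4.599 CPM and 1.73, 1.804 and 1.59 CPM. Hey1 stood at 0.991, 1.22 and 0 CPM and so was the target that missed the threshold. The sum of the targets was 5884, 6019 and 6337 CPM.

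Mean levels of the pre-TCR chain genes ran from 154 CPM for Ptcra to 1124 CPM for Cd3g. Cd3g stood at 1043, 1076 and 1254 CPM, Cd3d at 354, 328 and 361 CPM and Cd3e at 433, 439 and 475 CPM. Cd247, the zeta chain, stood at 192, 201 and 212 CPM and took 5.55% ± 0.189 of the TPM of the CD3 genes, against 50.3% ± 1.66 for Cd3g. Cd3g exceeded Ptcra by 2.89 ± 0.245 times per length, or 8.33 ± 0.707 times by coding length. The mean of Cd247 lay below that of Ptcra per merged exon length (143 against 451 TPM) but not by coding length (307 against 296 TPM). All 5 chains were highest in replicate 3, beside 47% of all 9515 genes with a mean of at least 5 CPM. That share is not matched for gene length, and short genes were relatively higher in replicate 3, as described at the end.

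All 28 genes of pre-TCR signalling reached 1 CPM, beside 48.2% of all genes, with a median of 128 CPM. Lck, the first kinase of the cascade, stood at 1168, 1197 and 1303 CPM. Its relative Fyn stood at 85.6, 81.4 and 75.3 CPM, and per length Lck exceeded it by 22.7 ± 2.799 times. Zap70 and Syk, the kinases that bind the phosphorylated chains, were both expressed, at 64.9, 65.1 and 72.7 CPM and 119, 110.3 and 105 CPM. Per length Zap70 exceeded Syk by 1.91 ± 0.232 times, but Syk had the higher CPM, and by coding length the order turned, with a ratio of 0.621 ± 0.0754. The adapters Lat and Lcp2 stood at 547, 557 and 634 CPM and 238, 233 and 215 CPM.

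Ptprc, the phosphatase CD45, stood at 1198, 1194 and 946 CPM, with replicate 3 lowest. Themis, an adapter needed after beta-selection, was already at 365, 363 and 304 CPM. Cd27, which rises on cells that pass beta-selection, stood at 161, 151 and 182 CPM. Cd5, another gene known to be induced by that signal, stood at 24.1, 24.7 and 25.1 CPM, Cd28 at 8.05, 7.795 and 7.85 CPM and Cd2 at 4.27, 3.87 and 4.48 CPM. Cd2 is of interest here because the study names its transgenic model CD2-Lmo2, but the level of mouse Cd2 is no measure of that transgene. Per length (9.09 ± 0.552 TPM) Cd2 lay above only Txk, Cd28 and Malt1 of the 28, while by coding length it was the lowest. Txk and Malt1 stood at 6.96 ± 1.11 CPM and 32.1 ± 2.46 CPM.

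Recombination genes were led by Dntt. Dntt exceeded Rag1 by 6.02 ± 0.325 times per length. All 15 genes reached 1 CPM, beside 48.2% of all genes. The DNA-bending cofactors Hmgb1 and Hmgb2 stood at 701 ± 5.78 CPM and 513 ± 10.6 CPM, and the end-binding genes Xrcc6 and Xrcc5 at 519.9 ± 5.38 CPM and 78.2 ± 2.88 CPM. Lig4, the ligase of end joining, stood at 115, 108 and 113 CPM. The kinase genes Atm and Prkdc, both very long, stood at 182, 182 and 123 CPM and 148, 148 and 101 CPM, with replicate 3 lowest. The polymerase genes Poll and Polm, which fill gaps at joints, stood at 7.96 ± 1.01 CPM and 5.37 ± 0.499 CPM.

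Of 26 cytokine receptor genes, 19 reached 1 CPM in every library, beside 48.2% of all genes. Il7r, the receptor of the main survival factor of early thymocytes, stood at 168, 162 and 165 CPM. Its partner Il2rg, the common gamma chain, stood at 91.00, 92.3 and 89.5 CPM. Il2rb, the chain that together with Il2rg lets CD25 signal, stood at 3.84, 3.67 and 1.901 CPM. Per length Il2ra exceeded Il2rb at a ratio of 442 ± 203 (325 for replicates 1 and 2 alone), and by coding length the ratio was 1092 ± 501. Kit, the receptor of stem cell factor that falls during the DN stages, was still at 85.7, 76.5 and 63.8 CPM. Ifngr1 stood at 372, 352 and 383 CPM, while its partner Ifngr2 stood at 17.5, 13.98 and 19.9 CPM. Flt3, Csf1r, Csf2rb and Epor, receptors of other lineages, stayed below 1 CPM in every library.

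All 11 genes of interleukin-7 signalling reached 1 CPM, beside 48.2% of all genes. Jak1 and Jak3 stood at 448 ± 34.3 CPM and 67.4 ± 2.11 CPM. Stat5b and Stat5a stood at 320.3 ± 11.3 CPM and 259 ± 12.2 CPM. The feedback inhibitors Socs1, Socs2 and Cish, targets of STAT5, stood at 32.3, 31.6 and 39.6 CPM, 10.4, 10.1 and 15.2 CPM and 8.98, 8.63 and 13.8 CPM, each highest in replicate 3.

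Homing receptors were selective. Ccr9, the receptor of the thymic chemokine CCL25, stood at 155, 145 and 157 CPM. Cxcr4, which acts with the pre-TCR at beta-selection, stood at 149.7, 149.5 and 228 CPM, again highest in replicate 3. Ccr7, used by later thymocytes to enter the medulla, stood at 3.03, 2.899 and 3.74 CPM. S1pr1, the exit receptor of mature T cells, stood at 0.929, 0.644 and 0.307 CPM, and Cxcr3, Cxcr5 and Ccr8 stayed below 1 CPM. The integrin gene Itga4 stood at 1061, 991 and 654 CPM and Itgb1 at 277, 284 and 283 CPM. Itgb7 stood at 9.22, 9.99 and 7.42 CPM.

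Genes of the cell cycle were expressed through all its phases. Of 13 cyclin and CDK genes, 12 reached 1 CPM in every library, beside 48.2% of all genes. Cdk6 stood at 1711, 1623 and 1304 CPM and Cdk4, a related kinase of G1, at 451, 468 and 551 CPM. Per merged exon length Cdk4 was at 567 ± 42.03 TPM and Cdk6 at 418 ± 70.4 TPM, but the order turned when the coding length was used (640.2 TPM and 1888 TPM), since most of the Cdk6 transcript is not coding. Of the D-type cyclins, Ccnd2 took 49.9% ± 3.51 of TPM, Ccnd3 49.6% ± 3.61 and Ccnd1 0.47% ± 0.107 (0.263% ± 0.0588 by coding length). Ccnd2 and Ccnd3 cannot be ordered, since their ranges overlapped. Ccnd3, the D-type cyclin known to be needed for expansion after the pre-TCR signal, stood at 251, 275 and 354 CPM. Ccnd1 stood at 1.67, 1.42 and 1.29 CPM. Ccna2 and Ccnb1 stood at 188 ± 8.77 CPM and 80.8 ± 5.99 CPM, while Ccna1, a germ cell cyclin, had no count.

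All 24 replication genes and all 18 mitotic genes reached 1 CPM, beside 48.2% of all genes. Their medians were 209 and 92.6 CPM, beside 42.5 CPM over all genes detected. The helicase genes Mcm2 to Mcm7 ranged per length from 285 ± 7.28 TPM for Mcm2 to 746 ± 12.8 TPM for Mcm6, and by coding length from 199 TPM for Mcm4 to 440.4 TPM for Mcm6. Pcna, the clamp of the replication fork, stood at 531, 538 and 634 CPM. Rrm2, the ribonucleotide reductase subunit of S phase, stood at 326, 319.6 and 381 CPM. Fen1 stood at 7.06, 6.12 and 8.401 CPM, the lowest of the replication list, but it overlaps another annotated gene and its count is uncertain. Mki67, the proliferation marker, stood at 1414, 1316 and 1052 CPM, and Top2a at 1067, 995 and 939 CPM. Plk1 and Aurkb, kinases of mitosis, stood at 82.1 ± 2.98 CPM and 92.98 ± 7.44 CPM.

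Of 7 CDK inhibitors, 4 reached 1 CPM in every library (57.1%, near the 48.2% over all genes). Cdkn1b, which encodes p27, stood at 108, 109 and 84.4 CPM, and Cdkn2c and Cdkn2d, which encode p18 and p19, at 29.7, 34.1 and 46.8 CPM and 25.8, 26.6 and 30.5 CPM. Cdkn1a stood at 36.9, 38.01 and 49.7 CPM, highest in replicate 3. Cdkn2a, Cdkn2b and Cdkn1c stayed below 1 CPM. All 11 genes of the Rb and E2F families reached 1 CPM, beside 48.2% of all genes. Among them E2f4 (333 ± 14.3 TPM) and E2f2 (124 ± 3.48 TPM) were the highest per length. Rbl1, Rb1 and Rbl2 stood at 161 ± 5.27 CPM, 70.8 ± 7.53 CPM and 67.9 ± 7.99 CPM.

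Myc dominated its own family. Myc, a driver of growth at this stage, stood at 311, 298 and 432 CPM, against 13.4 ± 1.53 CPM for Mycn and 0.0626 ± 0.00165 CPM for Mycl. Replicate 3 was highest for Myc, and the mean of replicates 1 and 2 was 305 CPM. Max, the shared partner, stood at 102, 108 and 124 CPM. Among survival genes, Mcl1 took 71.6% ± 1.297 and Bcl2 18.4% ± 0.049 of the TPM of the antiapoptotic BCL2 genes, while Bcl2l1, which serves at the next stage, took 5.75% ± 0.883. By coding length Mcl1 and Bcl2 lay close, at 45.8% ± 1.09 and 42.95% ± 0.332. The 3 Bcl2a1 genes, near-identical copies whose reads may be split or lost, did not exceed 0.258 CPM. Bcl2l11 and Bbc3, which promote cell death, stood at 61.2 ± 5.26 CPM and 4.36 ± 0.701 CPM. Trp53 stood at 244, 243 and 303 CPM, and of its listed targets Trp53inp1 (344 ± 33.98 CPM), Ccng1 (105 ± 5.19 CPM) and Mdm2 (105 ± 7.88 CPM) were the highest by CPM.

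In 5 of 8 glycolytic steps compared, 1 gene took more than 80% of the TPM. Of 25 glycolytic genes, 18 reached 1 CPM in every library (72%, beside 48.2% of all genes). Of the 18, 17 were highest in replicate 3, beside 47% of all genes with a mean of at least 5 CPM, a share not matched for gene length. Ldha, which makes lactate, stood at 755, 788 and 963 CPM and took 82.4% ± 1.11 of lactate dehydrogenase TPM. Pkm took 99.99% ± 0.00706 of pyruvate kinase, Aldoa 96.8% ± 0.697 of aldolase and Eno1 87.1% ± 1.41 of enolase. Hk1 took 74.7% ± 1.41 and Hk2, the inducible hexokinase, 24.9% ± 1.52. The 3 phosphofructokinase genes were mixed, at 52.7% ± 1.98 for Pfkl, 35.98% ± 2.101 for Pfkm and 11.4% ± 0.152 for Pfkp, and by coding length Pfkm took 18.8% ± 1.34 and Pfkp 22.6% ± 0.164. Pgam2, the muscle form, took 42.02% ± 1.19 of phosphoglycerate mutase per merged exon length and 23.6% ± 0.881 by coding length, at 12.2, 12.2 and 15.2 CPM. Pgk2 and Ldhc, the forms of testis, had no count in any library.

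**Figure D2:**
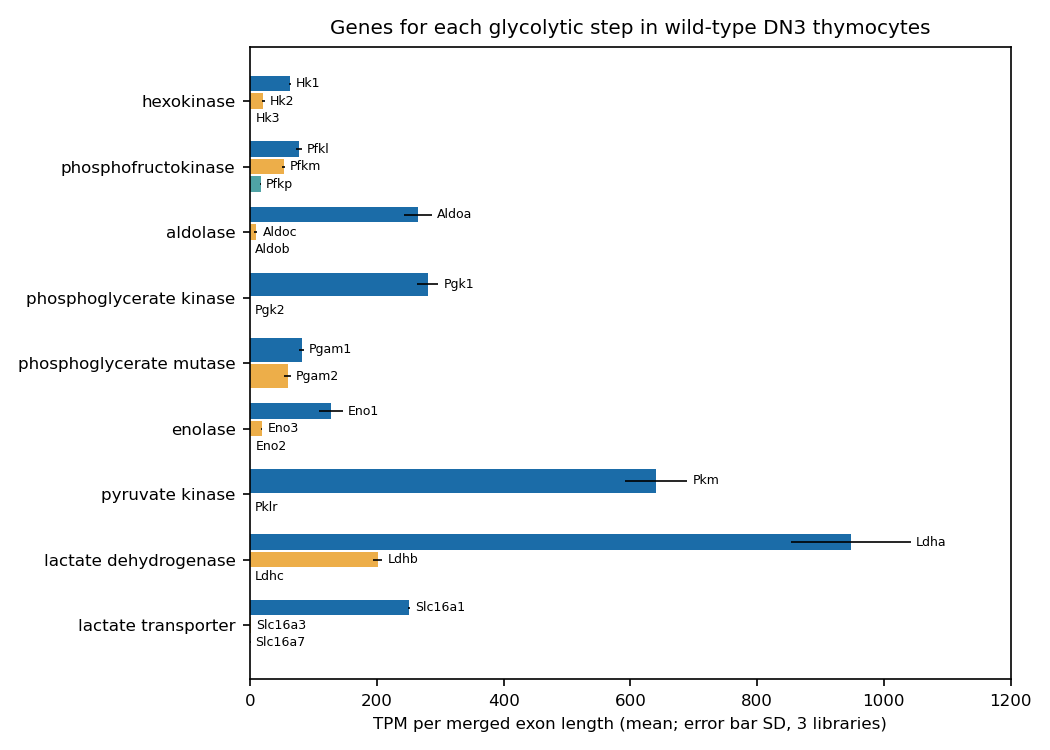
Bars give the mean TPM per merged exon length of each gene of a glycolytic step or of lactate transport, with error bars of 1 SD over 3 libraries, ordered within each step from highest to lowest. Ldha and Pkm reach the highest values (948 and 641 TPM), and in 5 of 8 glycolytic steps 1 gene takes more than 80% of the level.

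Glucose entry rested on Slc2a1 (18.2, 19.9 and 22.6 CPM) and Slc2a3 (32.4, 32.8 and 29.2 CPM). Slc2a2 and Slc2a4, the transporters of liver and muscle, stayed below 1 CPM. Slc16a1, the lactate transporter MCT1, took 99.3% ± 0.164 of its group and stood at 284, 292 and 307 CPM. In the list of amino acid and iron uptake, which also holds the enzyme gene Odc1, 9 of 10 genes had a mean of 100 CPM or more. Over the whole table, 2605 of 22114 genes did. Tfrc, the transferrin receptor, stood at 435, 421 and 341 CPM and Slc7a5 at 183, 203 and 191 CPM. The exception was Slc7a11, the cystine carrier, at 3.28, 2.13 and 2.21 CPM.

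All 21 genes of the citrate cycle and all 16 of one-carbon and nucleotide synthesis reached 1 CPM, beside 48.2% of all genes. Their medians were 149 and 234 CPM. Phgdh, which opens serine synthesis, stood at 343, 368 and 442 CPM. Impdh1 and Impdh2, the enzymes of guanine nucleotide synthesis, shared their step at 46.5% ± 1.403 and 53.5% ± 1.403. Of the pentose phosphate genes, Tkt was highest by TPM at 337 ± 21.2 TPM, followed by Taldo1 at 299 ± 18.3 TPM. Scd2 took 99.8% ± 0.0306 of stearoyl-CoA desaturase TPM, and stood at 1024, 975 and 1037 CPM against 1.98, 2.19 and 2.58 CPM for Scd1.

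Of 17 genes of cytochrome oxidase and cytochrome c, 12 reached 1 CPM in every library (70.6%, beside 48.2% of all genes). The general forms Cox4i1 (207 ± 26.00 CPM), Cox6a1 (129.7 ± 18.7 CPM) and Cox8a (116 ± 17.9 CPM) were high, while Cox4i2, Cox8b and the testis cytochrome Cyct did not exceed 0.129 CPM. Among other tissue forms, Cox6b2, known from testis, stood at 17.2, 16.8 and 20.5 CPM, and Cox7a1 and Cox6a2, known from muscle, at 1.86, 0.838 and 1.53 CPM and 0.557, 1.095 and 1.104 CPM. Among mitochondrially encoded genes, 7 of 13 reached 1 CPM in every library (53.8%, near the 48.2% over all genes). The genes mt-Co2, mt-Co3, mt-Atp6, mt-Atp8 and mt-Nd4l were listed at 0 in all libraries and mt-Nd3 below 1 CPM, although every cell uses them, so the mitochondrial share of 2.401% ± 0.0184 of counts is incomplete. Txnip, a brake on glucose uptake, stood at 120.2, 107 and 126 CPM, Hif1a at 144, 152 and 146 CPM and Mtor at 128, 130.1 and 111 CPM.

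Genes of earlier and later stages were measured next. Of 18 stem and progenitor genes, 10 reached 1 CPM, near the 48.2% over all genes, and the median was 1.45 CPM. Kit, Erg (52.3, 53.8 and 44.6 CPM) and Nfe2 (26.5, 25.4 and 27.8 CPM) were the highest by CPM. Lmo2, the oncogene of the study, stood at 0.31, 0.0644 and 0.245 CPM, with between 1 and 5 counts per library. Lyl1, a member of the same protein complex, stood at 3.78, 3.99 and 3.62 CPM. Tal1 stood at 1.61, 1.35 and 1.17 CPM, Hhex at 3.65, 3.74 and 2.39 CPM and Cd34 at 3.405, 2.45 and 1.41 CPM. Meis1, Hoxa9 and Mecom stood at 0.166 ± 0.0323 CPM, 1.52 ± 0.386 CPM and 0.0634 ± 0.0644 CPM.

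Of 19 genes of later T-cell stages, 10 reached 1 CPM, again near the share over all genes, with a median of 1.69 CPM. Cd1d1 was the highest, at 50.5, 50.1 and 48.2 CPM. Zbtb7b and Foxp3, factors of helper and regulatory T cells, stayed below 1 CPM, and Il17a had no count. Ctla4, a checkpoint receptor of activated T cells, stood at 9.47, 9.47 and 9.38 CPM.

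Genes known from gamma-delta T cells were partly present. Sox13 stood at 85.4, 81.4 and 93.5 CPM, Cd163l1 (a scavenger receptor) at 59.4, 59.3 and 42.7 CPM, Blk at 24.6, 28.5 and 26.6 CPM and Etv5 at 25.8, 25.6 and 25.6 CPM. Zbtb16, the factor of innate-like T cells, stood at 0.743, 0.709 and 0.307 CPM, and Il23r had 1 count in each library.

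Most genes of other lineages stayed below 1 CPM. Of 90 such genes, 18 reached 1 CPM in every library (20%, beside 48.2% of all genes), 60 stayed below 1 CPM in every library (66.7%, beside 50% of all genes), and 34 had 3 counts or fewer in each (37.8%, beside 42.8% of all genes). For comparison, 1 of 12 genes of unrelated tissues reached 1 CPM, the keratin gene Krt10 at 3.59, 3.54 and 3.43 CPM. The B-lineage factors Pax5 and Ebf1 stood at 0.867, 0.322 and 0 CPM and 0.371, 0.0644 and 0.184 CPM. In the erythroid list the globin gene Hbb-bs stood at 0.991, 2.13 and 0.613 CPM. In the myeloid list Mpo and Elane did not exceed 0.387 CPM, and Spi1, a factor of myeloid cells that early T cells switch off, stood at 3.16, 3.61 and 2.02 CPM. In the stroma list Foxn1, Krt5, Krt14, Pdgfra, Col1a2 and Col3a1 had no count, while Aire, a factor of thymic epithelium, stood at 5.32, 3.41 and 3.495 CPM, Krt18 at 0.991, 0.58 and 0.491 CPM and Col1a1 at 0.557, 0.58 and 0.552 CPM.

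A few genes of these lists stood well above the rest. Gzma, a protease of killer cells, was at 207, 188 and 206 CPM, and Nkg7, a granule protein, at 49.8, 46.2 and 47.7 CPM, while Ncr1 had no count and Prf1, Gzmb, Klrd1 and Eomes did not exceed 0.371 CPM. Pecam1, an adhesion protein of endothelium and leukocytes, stood at 154, 154 and 143 CPM, while the endothelial genes Cdh5 and Kdr stood at 1.73, 1.16 and 1.66 CPM and 0.0619, 0 and 0 CPM. Epcam stood at 48.5, 50.8 and 57.8 CPM and Pdgfrb at 76.5, 70.99 and 67.8 CPM, while the 4 keratin and 3 collagen genes of the list stayed below 1 CPM. Cd79b stood at 35.7, 32.1 and 39.8 CPM, against 0.495, 0.387 and 0.245 CPM for its partner Cd79a. Lyz2 stood at 16.3, 16.8 and 14.8 CPM, and Irf8 and H2-Ab1 at 10.96, 10.8 and 11.3 CPM and 7.55, 7.99 and 9.38 CPM. The highest library of Cd79b was 1.24 times the lowest and that of H2-Ab1 1.24 times, and the ratio was smaller for Gzma, Nkg7, Pecam1, Epcam, Pdgfrb, Lyz2 and Irf8.

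**Figure D3:**
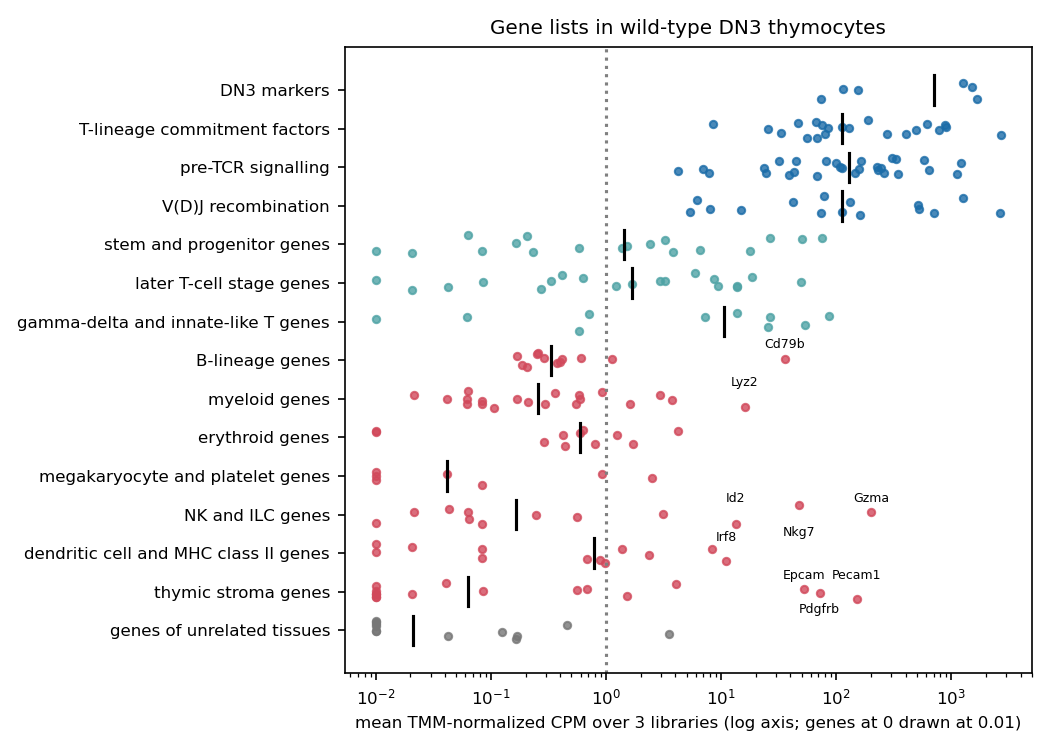
Each point is the mean TMM-normalized CPM of 1 gene over 3 libraries on a log axis, with genes at 0 drawn at 0.01, and each black line is the median of a list. T-lineage lists (blue) have medians from 112 to 708 CPM, and lists of other lineages (red) have medians below 1 CPM with the genes above 10 CPM named.

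Some genes of other cells were lower in replicate 3. The summed level of the myeloid list was 29.8, 35.05 and 20.6 CPM, and S100a9, a neutrophil gene, stood at 1.49, 1.29 and 0 CPM. Cd74, the invariant chain of MHC class II, stood at 2.97, 3.61 and 0.552 CPM. Others went the other way, and the sum of the B-lineage list was 41.4, 35.9 and 43.1 CPM. Of the 10 genes of other lineages with a mean of at least 5 CPM, 4 were lowest and 4 highest in replicate 3. The shares over all genes at that level were 39.2% and 47%. The part of cells of other lineages in the results was not tested.

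The spread between libraries was small for most genes. Of 9515 genes with a mean of at least 5 CPM, 43 (0.452%) had a highest library more than 2 times the lowest. Of the 43 genes, 40 were lowest in replicate 3, 33 were highest in replicate 2 and 8 were highest in replicate 1. Without replicate 3 the count was 14. None of the DN3 markers was among the 43. Replicate 3 lay more than 1.2 times above both others for 715 genes and below both for 803, while the numbers were 93 and 98 for replicate 1 and 77 and 90 for replicate 2.

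Immediate-early genes, which are switched on within minutes by growth factors, stress or handling of cells, made up 10 of the 43. Fos stood at 108, 325 and 3.74 CPM, Fosb at 49.3, 116 and 0.368 CPM, Jun at 227, 505 and 44.1 CPM and Junb at 264, 464 and 29.4 CPM. In each case replicate 2 was highest and replicate 3 lowest. Dusp1, a phosphatase of MAP kinases, stood at 36.8, 79.1 and 9.505 CPM, and Zfp36, which destabilizes messenger RNA, at 17.3, 42.7 and 8.401 CPM. The heat shock genes Hspa1a and Hspa1b, near-identical copies whose reads may be split, stood at 42.4, 68.2 and 7.297 CPM and 123, 165 and 29.99 CPM. The sum of the list was 1033, 2012 and 254 CPM, and all 12 members with a mean of at least 5 CPM were lowest in replicate 3, beside 39.2% of all genes at that level.

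Genes outside that list with the same order of libraries included Klf4 (14.6, 31.6 and 0.245 CPM), Ptgs2 (11.7, 16.9 and 0.0613 CPM), Ppp1r15a (82.9, 147 and 17.9 CPM), Klf6 (69.7, 97.02 and 33.1 CPM) and Cd69 (20.8, 28.2 and 6.87 CPM), named here after their values were seen. Tnfaip3, an inhibitor of NF-kappaB signals, stood at 237, 267 and 103 CPM. Nr4a1, which T-cell receptor signals induce, was more even at 27.3, 34.9 and 21.3 CPM.

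Promoters of some members of this group are shown, since its members moved together across the libraries. Each promoter shown holds a marked match, which most windows of the group lack, so they are not typical of it. The 150 bases before the start are given from RefSeq (GRCm38.p6) for Dusp1 (chr17:26508473-26508622), Hspa1a (chr17:34972157-34972306) and Hspa1b (chr17:34959239-34959388), all on the minus strand and written 5′ to 3′. Capitals mark TGACGTCA, the cyclic AMP response element, in Dusp1 and GAANNTTC, the core of the heat shock element, in the others.
Dusp1: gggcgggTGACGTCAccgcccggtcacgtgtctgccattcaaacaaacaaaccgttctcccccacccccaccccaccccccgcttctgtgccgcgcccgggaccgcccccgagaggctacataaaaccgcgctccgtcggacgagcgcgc
Hspa1a: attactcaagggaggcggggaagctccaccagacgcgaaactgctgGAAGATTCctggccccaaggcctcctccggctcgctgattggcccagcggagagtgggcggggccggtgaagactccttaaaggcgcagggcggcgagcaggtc
Hspa1b: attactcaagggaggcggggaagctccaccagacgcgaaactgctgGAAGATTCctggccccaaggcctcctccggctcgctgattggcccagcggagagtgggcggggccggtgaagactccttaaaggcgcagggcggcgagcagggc
The response element lay 143 bases before the start of Dusp1, and the heat shock core lay 104 bases before the start of Hspa1a and Hspa1b. Of all windows of 250 bases, 1.55% held TGACGTCA and 6.69% held GAANNTTC. Of 12 list members with a RefSeq window, TGACGTCA was found in Dusp1 only and GAANNTTC in Jun, Hspa1a and Hspa1b. The matches are given as a description only.

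**Figure D4:**
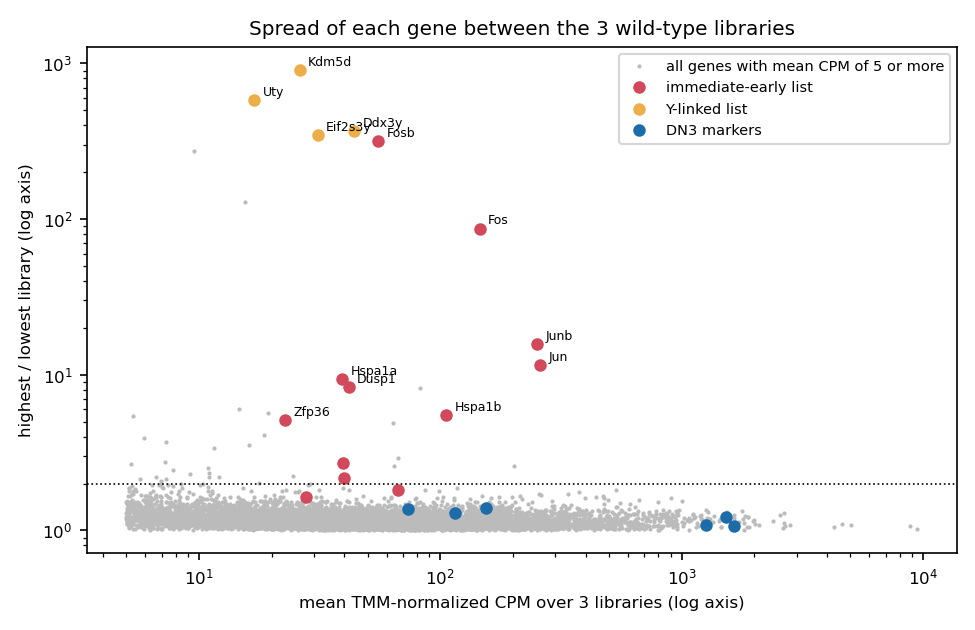
Each point is 1 gene with a mean of at least 5 CPM, with its mean CPM on the x axis and the ratio of its highest to its lowest library on the y axis, both log axes, and a dotted line at a ratio of 2. The 4 listed Y-linked genes and several immediate-early genes lie far above the line, up to a ratio of 907 for Kdm5d, and the 6 DN3 markers lie below it.

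The 4 listed Y-linked genes had the largest ratios. Ddx3y stood at 90.6, 41.4 and 0.245 CPM, Eif2s3y at 63.95, 28.9 and 0.184 CPM, Kdm5d at 55.6, 22.8 and 0.0613 CPM and Uty at 35.8, 14.9 and 0.0613 CPM. Replicate 2 held 41.0% to 45.6% of the CPM of replicate 1 for these genes, and replicate 3 held between 1 and 4 counts. Erdr1, placed on chromosome Y by the annotation and named here after its values were seen, stood at 25.7, 27.7 and 4.84 CPM. Unlike the 4 listed genes, it was not lower in replicate 2 than in replicate 1 and kept 79 counts in replicate 3. The labels do not give the sex of the mice. The median log2 ratio of replicate 3 to the mean of replicates 1 and 2 was -0.04 over 298 genes of chromosome X, within the range of -0.04 to 0.07 over the 19 autosomes.

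Gene length also moved with replicate 3. In the fifth of genes with the shortest merged exons, the median log2 ratio of replicate 3 to the mean of replicates 1 and 2 was 0.20, and in the fifth with the longest it was -0.16. The same medians for replicate 2 against replicate 1 were 0.02 and -0.01. By coding length the values for replicate 3 were 0.18 and -0.16. The lists of the ribosome (median 0.25), cytochrome oxidase (0.29) and glycolysis (0.23) were relatively higher in replicate 3, and Notch1, Ptprc, Atm and Mki67 were lower. The part of length in the values of replicate 3 was not tested.

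**Figure D5:**
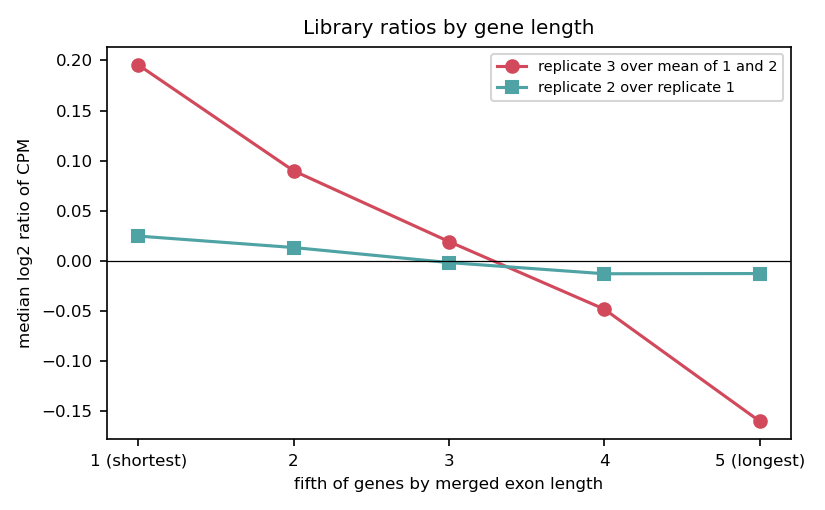
Points are the median log2 ratio of CPM over genes in 5 equal groups by merged exon length, for replicate 3 against the mean of replicates 1 and 2 (circles) and for replicate 2 against replicate 1 (squares). The medians for replicate 3 run from 0.20 in the shortest group to -0.16 in the longest, and those for replicate 2 stay between -0.01 and 0.02.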

How the data were processed

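Reads of poly-A captured total RNA were aligned with STAR 2.4.2a to mm10 and counted with featureCounts, per the labels; limma is also listed there. The annotation, strand setting and treatment of multiply mapped reads are not given in the sources used here. The deposited values are raw counts of reads for each protein-coding gene, and only the columns of the 3 wild-type samples and, for Cdkn1a, of 2 of the 3 samples labelled p21 KO were used; 11 other per-sample columns were not used.

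CPM were computed with edgeR 4.0.16 (R 4.3.3) from TMM-normalized library sizes, and dispersion after filterByExpr (minimum count 10, minimum total count 15). TPM used merged exon lengths of GENCODE M21, to which 98.6% of identifiers matched, in Python 3.11.15 (pandas 2.3.3, numpy 2.4.6); figures used matplotlib 3.10.9. No test was made, since there was 1 group of 3 libraries. Of the genes detected, 37.9% overlap another annotated gene on either strand. Where a symbol had more than 1 identifier, the one with that name in M21 was taken. On simulated counts with a coefficient of variation of 5%, 10% or 20%, the estimates were 4.995%, 9.88% and 19.8%.

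Gene lists and members were chosen with earlier results of these data known. Named genes are list members, the 20 highest by mean CPM and by TPM, the 10 with the largest ratio between libraries (mean CPM of 5 or more) and the 10 highest genes of other lineages. Some list members are counted but not reported here by name. Alternatives were RLE size factors, library totals, other filters and lengths, and each replicate left out; coding length and replicate 3 left out were added for ratios and shares after the data were seen.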

Additional observations from a re-analysis of the deposited data

How the results depend on the processing

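No paired analysis was possible because no test was made and all libraries belong to 1 group, so that the replicate numbers pair nothing. The number of genes over 2-fold between libraries was 43, and it was 1306 with no filter beyond 1 count in every library and 19 among genes with a mean CPM of 20 or more. It ranged from 14 to 38 when a replicate was left out, with the lowest value without replicate 3. The biological coefficient of variation of 9.27% ranged from 3.62% to 11.2% when a replicate was left out, again lowest without replicate 3. With the limit at 3 counts in every library instead of 1 CPM, 34 rather than 60 genes of other lineages fell under it. The share of the 10 top genes was 3.57% with mitochondrially encoded genes left out, and the ribosomal share was 14.4% of TPM. Of the 50 highest genes per length, 29 were also among the 50 by coding length and 42 by longest transcript. RLE size factors and library totals moved no other value beyond its SD or 1.5 times, nor the level of any of the 272 named genes. Of 20 ratios between genes computed per length, 11 moved by more than 1.5 times when coding length was used and 0 when replicate 3 was left out; both alternatives were chosen after the data were seen. Leaving out 1 of 3 libraries cannot move a mean by more than its SD, so those values say nothing about stability. Precision is limited by n = 3 and, for genes near 0.19 CPM, by counting error.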
